A study of Homo sapiens with 6 samples.

Results

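The genes of the cytoplasmic translation initiation factors (eIF) and elongation factors (eEF) were examined in Huh7 cells, an established human hepatoma line, with and without overexpression of hsa_circ_0098181. Genes were taken by symbol, from every listed gene named EIF1 to EIF6 or EEF1 or EEF2 with its suffix. Names that contain AK, as those of the EIF2 kinases do, were left out. So were names ending in P or P and digits, which are pseudogene symbols but also EIF4EBP1, EIF4EBP2 and EIF4EBP3, placed in a related list instead. The rule gave 58 of the 50868 genes in the table, each on 1 row. This circle is an RNA without ends, back-spliced from exons of SOX5. Total RNA was sequenced 48 h after the lipid reagent Lipofectamine carried a plasmid into the cells, either the one that overexpresses the circle (3 libraries) or the control plasmid (3 libraries). Both groups were therefore transfected Huh7 cells, and plasmid is the only difference between them that the labels give. No label says that the 3 libraries of a group came from separate cultures, so p-values measure only the spread between these libraries, which may be technical.

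Initiation begins when eIF2 brings the initiator tRNA to the small ribosomal subunit, with eIF1, eIF1A, eIF3 and eIF5 alongside. The eIF4 factors bind the mRNA cap and unwind the leader, eIF2B recharges eIF2 with GTP, and eIF5B joins the large subunit. Thereafter eEF1A delivers each aminoacyl-tRNA, eEF2 moves the ribosome by a codon, and eIF5A helps at stalling stretches. Many of these mRNAs, like those of ribosomal proteins, start with a run of pyrimidines through which mTORC1 and LARP1 control their translation.

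Across the 58 genes, none changed with the overexpression plasmid at an adjusted p under 0.05 (edgeR quasi-likelihood test, Benjamini-Hochberg adjustment over 15055 genes). Of the 58, 56 were tested. EIF4E1B, an eIF4E relative of germ cells, was listed at 0 counts in all 6 libraries, where a floor of 3 counts allows up to 0.212 to 0.270 CPM (counts scaled to library size). The Y-linked EIF1AY was counted as a member and not described further. Among all genes tested, 0.0266% passed as higher and 0.0133% as lower. The smallest adjusted p of a factor gene was 0.797, and 4 of the 56 had an unadjusted p under 0.05. DESeq2 and limma also called 0 of them. In number, 34 had a fitted log2 fold change above 0 and 22 below it, against 50.5% above 0 among all genes. Their median was 0.039, against 0.0023 over all genes tested. Without control replicate 1 the median was -0.0014 and 28 of the 56 were above 0.

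The first letters of the transcripts are shown here because the pyrimidine start is the feature that many of these genes are known for, and the rule did not use it. In the RefSeq promoter table (GRCh38.p14), 48 of the 58 genes had an entry. The letters searched for, on the strand of the gene only, were a C at the annotated start followed by 4 bases that are each C or T. They stood at the start of 12 genes (25.0%), against 4.04% of all 27305 promoters. Counted at the start or a few bases from it, they were found in 20 of the 48 genes, against 21.1% of all promoters. Capitals mark the matched letters in the first 15 bases of the transcript, and EIF4A1 is added as a gene without them.
EEF1A1 (chr6:73521018-73521032, minus strand): CTTTTtcgcaacggg
EEF2 (chr19:3985449-3985463, minus strand): CTCTTccgccgtcgt
EIF4B (chr12:53006456-53006470, plus strand): CTTTTgcgttctctt
EIF4A2 (chr3:186783577-186783591, plus strand): CTTTTcagtcgggcg
EIF2A (chr3:150546787-150546801, plus strand): CTCTTtccgggacaa
EIF2S3 (chrX:24054956-24054970, plus strand): CTCTTttggcaacat
EIF3K (chr19:38619188-38619202, plus strand): CTCTTcctgttcccg
EIF3M (chr11:32583831-32583845, plus strand): CTTTTccggtcggcg
EIF4A1 (chr17:7572825-7572839, plus strand): cctagtttctaagga
The other genes with the letters were EIF2D, EIF2S3L, EIF3D and EIF3F. EIF2S3L, a listed copy of EIF2S3, has the same first 15 bases as EIF2S3. A match describes the annotated start only, and a gene without one may start elsewhere in these cells.

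The libraries held 11130902 to 14138262 counts, and the factor genes took 1.61% to 1.86% of each. SOX5, whose exons the plasmid carries, had 2104 ± 258 CPM with overexpression and 35.8 ± 5.41 CPM in controls (SD, n = 3 each), so the libraries matched their labels. Hepatocyte markers such as ALB and AFP summed to 25779 to 27092 CPM with overexpression and 23290 to 27426 CPM in controls. Of 10 markers of other cell types, KRT19, EPCAM and PECAM1 gave most of a sum of 238 to 280 CPM. CD68 was at 6.64 to 12.8 CPM, COL1A2 at 5.35 to 10.3 CPM and PTPRC at 0.766 to 1.86 CPM across the 6 libraries. CD3E, VWF, COL1A1 and ACTA2 were at or near 0. Control replicate 1 stood apart. Mitochondrial genes took 9.29% of its counts, against 6.32% to 7.04% in the other 5 libraries, and it held the lowest value of 24 factor genes and the highest of 13. That made it the extreme library for 66.1% of the factor genes and for 53.1% of all genes tested. In bulk RNA, fewer cells expressing a gene and less of its RNA per cell cannot be told apart.

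Measured against the spread between these libraries alone, which may be technical, most changes were bounded. Each fold change has a 95% interval, and for 51 of the 56 genes (91.1%) it lay within 1.5-fold in either direction, against 58.0% of all genes tested. The exceptions were EEF1A1, EEF1A2, EEF1G, EIF4B and EIF4E3. Within 2-fold lay 55 of the 56, against 84.1% of all genes. The factor genes were also more abundant than most, with a median of 144 CPM against 22.5 CPM, and abundance narrows such intervals. Their median SD of log2 CPM within groups was 0.135, against 0.182 over all genes tested. The intervals also take the reads as they were assigned to genes. For EIF4A1 alone, the interval of the log2 fold change was 0.10 to 0.57. Summed with the genes that overlap EIF4A1, a sum added after seeing the data, it was -0.26 to 0.29. Among the exceptions, the interval was -0.26 to 0.18 for EEF1G summed in the same way. It was -0.17 to 0.30 for EEF1A1 summed with its copies, so both sums lay within 1.5-fold. EIF4B summed with its copies had -0.13 to 0.63 and did not.

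**Figure D1:**
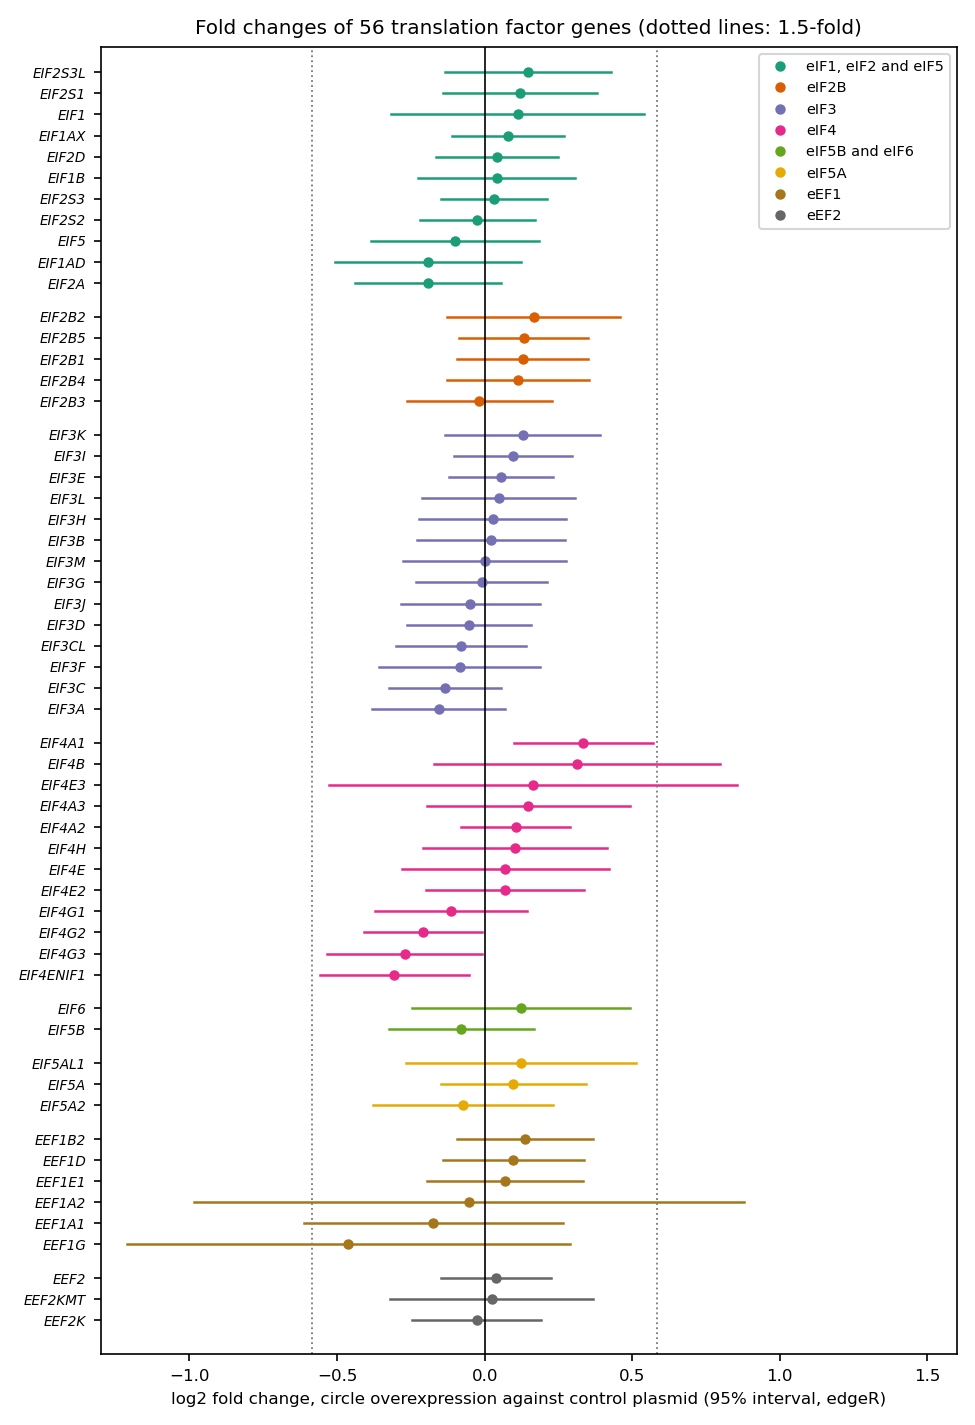
Fitted log2 fold change of the 56 tested genes, overexpression against control plasmid, on the x axis, with 1 gene per line, coloured by role. Points are edgeR estimates, bars are 95% intervals (n = 3 libraries per group) and dotted lines mark 1.5-fold. Most intervals cross 0 and 51 of 56 stay between the dotted lines.

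At an unadjusted p under 0.05 stood 4 of the 56 genes (7.14%), against 5.5% of all genes tested. The same 4 genes were those whose groups did not overlap in CPM (7.14%), against 12.9% of all genes tested. Both shares are close to, or below, the background. All 4 belonged to the cap-binding and helicase group, with EIF4A1 on the higher side and EIF4ENIF1, EIF4G2 and EIF4G3 on the lower. Among all genes tested, 2.42% were higher and 3.08% lower at that unadjusted p, and groups did not overlap for 6.4% as higher and 6.5% as lower.

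The factors eIF1, eIF2 and eIF5 carry the initiator tRNA and read the start codon. Their group, filled by symbol, had 11 tested genes. Of these, 7 were above 0 and 4 below, with a median log2 fold change of 0.040 and a range of -0.19 to 0.15. EIF2S2, the beta subunit of eIF2, was at 356, 330 and 320 CPM with overexpression and at 361, 336 and 326 CPM in controls. The groups interleaved almost completely, with a log2 fold change of -0.02 (SE 0.09). EIF2A, a protein separate from eIF2 that can also bind initiator tRNA, was at 118, 112 and 113 CPM with overexpression and at 124, 118 and 150 CPM in controls. Its control replicate 3 was high and the lowest control lay at the highest overexpression value. The log2 fold change of EIF2A was -0.19 (SE 0.11, edgeR with Benjamini-Hochberg adjusted p = 0.797), and -0.08 without control replicate 3. EIF1, which guards the choice of start codon, spread more among controls (59.3, 86.1 and 106 CPM) than with overexpression (94.9, 91.7 and 85.4 CPM). The overexpression libraries lay inside the range of the controls, and the log2 fold change of 0.11 (SE 0.19) became -0.08 without control replicate 1. Its paralog EIF1B was at 62.3, 56.3 and 61.9 CPM against 50.9, 58.2 and 66.3 CPM in controls, again with control replicate 1 lowest.

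The eIF2B subunits form the exchange factor that reactivates eIF2 and is the point where eIF2 phosphorylation acts. Of its 5 genes, 4 were above 0 and 1 (EIF2B3) below, with a median of 0.13 and a range of -0.02 to 0.17. EIF2B5, the catalytic subunit, was at 71.9, 75.1 and 79.8 CPM with overexpression and at 63.8, 73.4 and 69.9 CPM in controls. Only overexpression replicate 1 fell inside the control range. The log2 fold change of EIF2B5 was 0.13 (SE 0.09, edgeR adjusted p = 0.798), and it was 0.08 without control replicate 1.

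The eIF3 complex is the scaffold that holds the small subunit and the mRNA together. Its 14 genes split evenly into 7 above and 7 below 0, with a median of -0.01 and a range of -0.16 to 0.13, and no gene had groups that stood apart. EIF3A, the largest core subunit, was at 767, 815 and 828 CPM with overexpression, against 1003, 819 and 862 CPM in controls. Control replicate 1 was the high value, and the log2 fold change was -0.16 (SE 0.10) with all libraries and -0.06 without that one. EIF3C, another core subunit, was at 225, 232 and 225 CPM with overexpression and at 254.9, 232 and 262 CPM in controls, a log2 fold change of -0.14 (SE 0.08, edgeR adjusted p = 0.797). Control replicate 2 lay at the level of overexpression replicate 2.

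The eIF4 group had 12 tested genes, 8 above and 4 below 0, with a median of 0.09 and a range of -0.31 to 0.33. EIF4A1, the main RNA helicase of cap-dependent initiation, was at 225, 270 and 260 CPM with overexpression and at 214, 203 and 182 CPM in controls. All 3 overexpression libraries were higher than all 3 controls. The log2 fold change was 0.33 (SE 0.10, 95% interval 0.10 to 0.57), with an unadjusted p of 0.011 and an adjusted p of 0.797 in edgeR. Summed with its pseudogenes, the log2 fold change was 0.28 (unadjusted p = 0.0093), and summed with the genes that overlap EIF4A1, an alternative chosen after seeing the data, it was 0.01. Its close paralog EIF4A2 was at 496, 482 and 505 CPM against 438, 488 and 452 CPM, and the groups overlapped. EIF4B, which stimulates the helicase, was added to the genes described after its values were seen. It was at 739, 446 and 749 CPM with overexpression and at 440, 483 and 634 CPM in controls, so that overexpression replicate 2 sat with the lower controls and the other overexpression libraries above all of them. The log2 fold change of EIF4B was 0.31 (SE 0.21), and it lay between 0.19 (without overexpression replicate 3) and 0.52 (without overexpression replicate 2) when each library was left out in turn.

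The scaffold genes of this group had fold changes below 0. EIF4G1, the main scaffold that joins the cap-binding protein to the helicase, was at 999, 1220 and 1153 CPM with overexpression and at 1342, 1088 and 1219 CPM in controls, with overlapping groups and a log2 fold change of -0.11 (SE 0.11). That value was -0.04 without overexpression replicate 1 or control replicate 1, and -0.19 without control replicate 2. EIF4G2, a relative that lacks the binding site for eIF4E, was at 699, 737 and 686 CPM against 764, 808 and 882 CPM. Its 3 overexpression libraries were all lower, by -0.21 on the log2 scale (SE 0.09, unadjusted p = 0.042, edgeR adjusted p = 0.797). EIF4G3, a second full-length scaffold, was at 178, 192 and 202 CPM against 266, 219 and 205 CPM. The gap between the groups was narrow, from 202 to 205 CPM, and the log2 fold change of -0.27 (SE 0.11) became -0.15 without control replicate 1, the highest control. EIF4ENIF1, which carries eIF4E into the nucleus and to processing bodies, was at 22.0, 20.1 and 21.3 CPM with overexpression and at 27.9, 24.2 and 26.3 CPM in controls. Its log2 fold change was -0.31 (SE 0.11, unadjusted p = 0.023, edgeR adjusted p = 0.797), and it lay between -0.36 and -0.26 when each library was left out in turn. EIF4E itself, the cap-binding protein, was at 33.4, 31.5 and 42.1 CPM against 28.4, 35.7 and 37.8 CPM. Its groups overlapped in part, with overexpression replicate 3 highest and control replicate 1 lowest. Its relative EIF4E2 also had partly overlapping groups, at 105, 83.4 and 84.8 CPM against 80.0, 87.8 and 92.7 CPM.

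EIF5B, the GTPase that joins the ribosomal subunits, was at 343, 316 and 346 CPM with overexpression and at 406, 319 and 337 CPM in controls. EIF6, which keeps the large subunit from joining too early, was at 209, 191 and 208 CPM against 137, 202 and 219 CPM. In both genes control replicate 1 was the extreme value, highest for EIF5B and lowest for EIF6. Without it the log2 fold change moved from -0.08 to 0.03 for EIF5B and from 0.12 to -0.05 for EIF6. EIF5A, which frees ribosomes stalled at proline-rich stretches, was at 208, 209 and 195 CPM against 167, 189 and 216 CPM, and EIF5A2 was at 24.1, 20.3 and 26.3 CPM against 23.6, 23.5 and 27.2 CPM. Neither pair of groups separated. For EIF5A the log2 fold change of 0.10 (SE 0.11) was 0.01 without control replicate 1 and 0.20 without control replicate 3.

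Among the genes with elongation factor symbols, 6 eEF1 genes split into 3 above and 3 below 0, with a range of -0.46 to 0.14. EEF1A1, the carrier of aminoacyl-tRNA, was at 2415, 2390 and 2174 CPM with overexpression and at 1809, 2784 and 3281 CPM in controls. The overexpression libraries lay within the wide control range, with a log2 fold change of -0.17 (SE 0.19) that turned to 0.06 with its copies summed. EEF1A2, its muscle and neuron form, was low at 0.920, 2.00 and 1.37 CPM with overexpression and at 0.831, 1.70 and 1.89 CPM in controls, and its 95% interval of the log2 fold change ran from -0.99 to 0.88. EEF1G, the scaffold of the eEF1B exchange complex, was at 681, 229 and 586 CPM with overexpression and at 662, 694 and 703 CPM in controls. A single library, overexpression replicate 2, was far below the other 5, and the log2 fold change of -0.46 (SE 0.33) became -0.12 without it. It was -0.75 without overexpression replicate 1.

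The translocase gene EEF2 was at 3797, 3878 and 3714 CPM with overexpression and at 3512, 3726 and 3860 CPM in controls, so its log2 fold change of 0.04 (SE 0.08) had a 95% interval of -0.15 to 0.22. EEF2K, the kinase that inactivates eEF2, was at 39.6 to 43.3 CPM in all 6 libraries, with a log2 fold change of -0.03 (SE 0.10). With EEF2KMT, a methyltransferase of eEF2, the 3 genes ranged from -0.03 to 0.04.

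Levels can be set against each other only per length. As mean CPM per kilobase of merged exons over the 6 libraries, EEF2 led at 931, followed by EEF1A1 at 416, EEF1G at 218, EEF1B2 at 207 and EIF4G1 at 142. At the other end were EIF4E at 2.48, EIF4E3 at 0.347 and EEF1A2 at 0.296. EIF4E had 14067 bases of merged exons, the most of the tested genes. Its copy EIF4EP2 held 47.6% of the counts of EIF4E and its listed copies. The deposited FPKM values also put EEF2, EEF1A1 and EEF1G first, but EIF2S2 was 4th by FPKM, EEF1B2 7th and EIF4G1 11th, and EIF4E3 was last. The first place also turned on read assignment: with the counts of its listed copies added, EEF1A1 was at 2097 CPM per kilobase of its own exons, above EEF2.

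**Figure D2:**
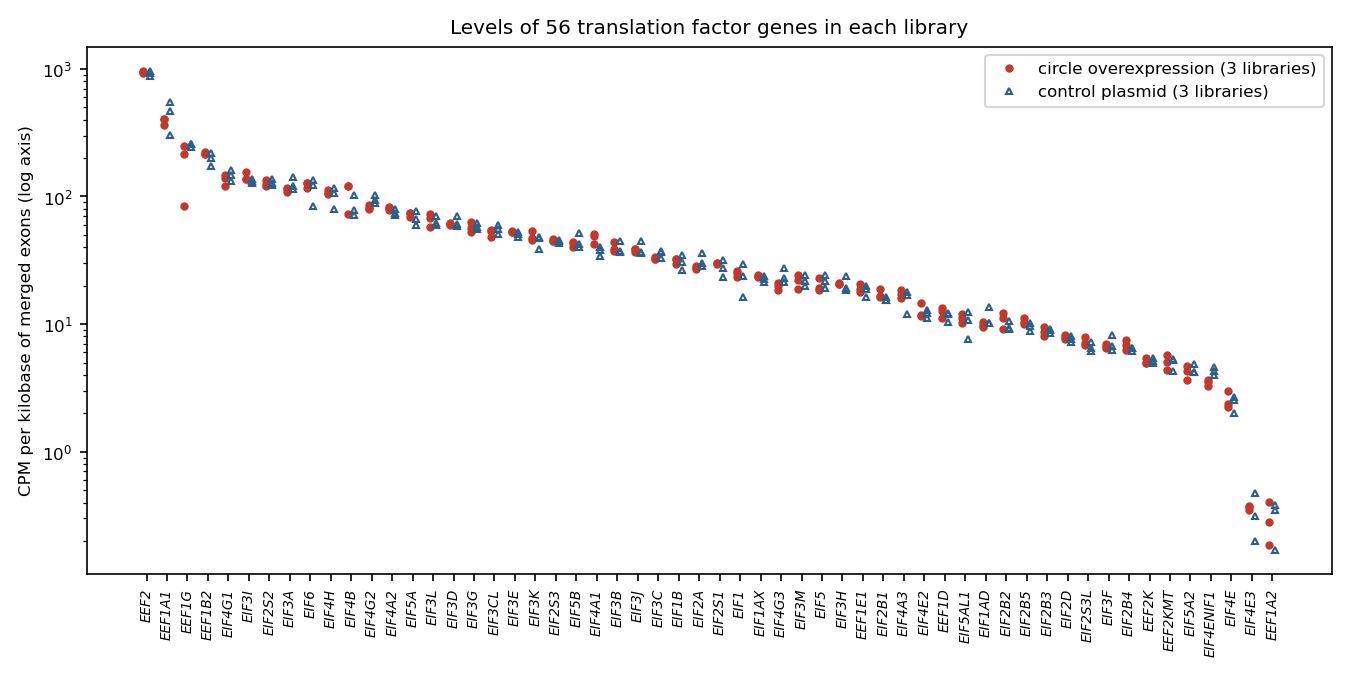
Level of each of the 56 tested genes in each library, as CPM per kilobase of merged exons on a log axis, with genes on the x axis in order of their mean. Red circles are the 3 overexpression libraries and blue triangles the 3 control libraries. EEF2 leads at a mean of 931 and EEF1A2 is last at 0.296, and the circles and triangles of most genes overlap.

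EIF4A1 and EEF1G, the highest and the lowest fold change among the factor genes, both overlap other annotated genes on the same strand. EIF4A1 (chromosome 17, 7572706 to 7579005, GRCh38) shares 1586 exonic bases with the readthrough gene SENP3-EIF4A1, which had 793, 0 and 0 counts with overexpression and 140, 491 and 1880 counts in controls. It also shares 2186 exonic bases with RP11-186B7.4, which had 517, 662 and 411 counts against 380, 633 and 281 counts. With all of them summed, the locus had 318, 317 and 293 CPM with overexpression and 262, 298 and 360 CPM in controls. The groups then overlapped, and the log2 fold change was 0.01 (SE 0.12, edgeR adjusted p = 0.986) in place of 0.33.

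EEF1G (chromosome 11, 62559601 to 62574086, GRCh38) shares 2714 exonic bases with the longer gene RP11-864I4.1. That gene had 7661 counts in overexpression replicate 2, the library in which EEF1G was low, and 196 to 853 counts in the other 5. It took 70.5% of the counts of the pair in that library and 2.24% to 9.48% elsewhere. The sum of EEF1G and RP11-864I4.1 was 713, 776 and 643 CPM with overexpression and 703, 767 and 719 CPM in controls, with a log2 fold change of -0.04 (SE 0.09, edgeR adjusted p = 0.939). On this sum, overexpression replicate 2 was the highest library rather than the lowest.

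**Figure D3:**
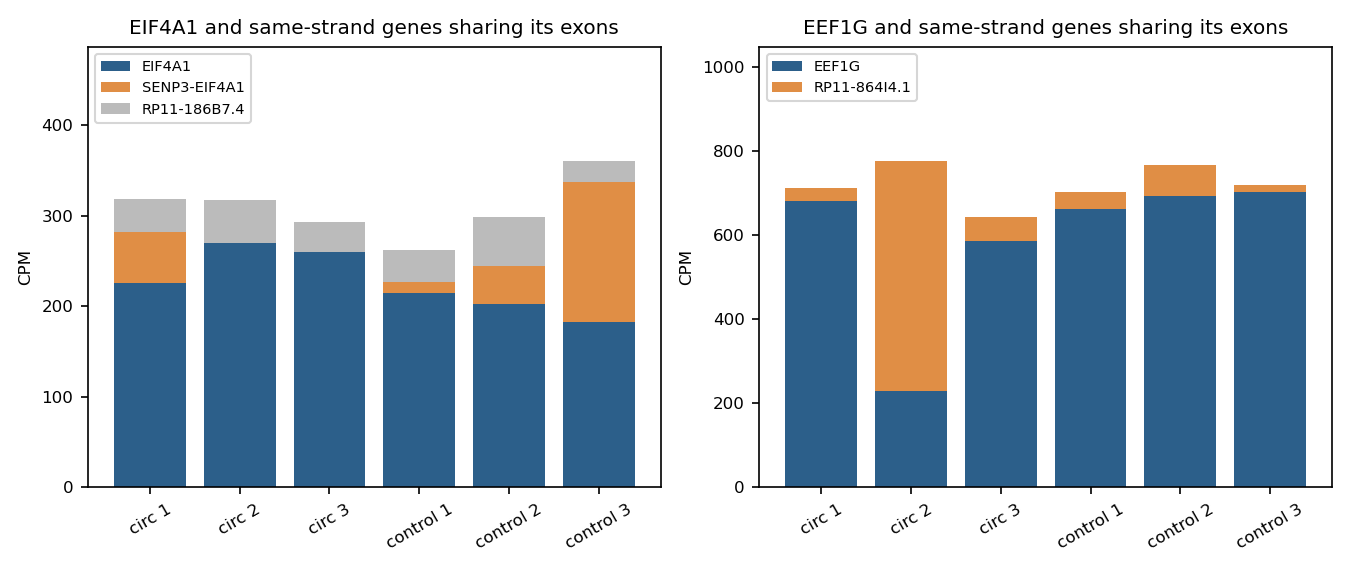
CPM of EIF4A1 and EEF1G in each of the 6 libraries, stacked with the genes that overlap them on the same strand. The EEF1G bar is short in overexpression replicate 2 where RP11-864I4.1 is tall, and the stacked heights run from 643 to 776 CPM for EEF1G and from 262 to 360 CPM for EIF4A1.

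Counts were also assigned to copies of these genes. The table listed 134 copies and pseudogenes for 26 of the 58 genes. EEF1A1P5, a processed pseudogene on chromosome 9 (133019486 to 133020874, plus strand, GRCh38), held 73.2% of the counts assigned to EEF1A1 and its copies, more than EEF1A1 itself. Its sequence in GENCODE 29 differs from the coding sequence of EEF1A1 by 4 substitutions over 1389 bases, so that 90.9% of the 31-base stretches of EEF1A1 also occur in it. EIF5AL1 differs from the coding sequence of EIF5A by 5 substitutions over 465 bases, and 76.8% of the coding 31-base stretches of EIF5A occur in it. Each window below was chosen to hold 1 substitution near its middle, so the likeness of its other bases follows from that choice. The differing base is in capitals. Positions are counted from 1 at the A of the start codon of the first gene of each pair.
EEF1A1 coding bases 279 to 308: aggacacagagacttTatcaaaaacatgat
EEF1A1P5 at the same place: aggacacagagacttCatcaaaaacatgat
EIF5A coding bases 91 to 120: gtggtgctcaaaggcCggccatgtaagatc
EIF5AL1 at the same place: gtggtgctcaaaggcTggccatgtaagatc
The substitutions in these windows are T294C for EEF1A1P5 and C106T for EIF5AL1.

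EEF1A1P5 was at 9754, 9261 and 9466 CPM with overexpression and at 8166, 9305 and 8788 CPM in controls. When EEF1A1 and all its listed copies were summed, the levels were 13156, 12576 and 12489 CPM against 10679, 13012 and 12920 CPM. Control replicate 1 was then the only low library, and the log2 fold change was 0.06 (SE 0.10, edgeR adjusted p = 0.903), with the sign opposite to that of EEF1A1 alone. EIF3CL, a coding gene whose sequence aligned with that of EIF3C with 0 substitutions and 3 gap bases over 2742 bases, held 41.1% of the counts of the pair. It was at 167, 169 and 149 CPM against 184, 157 and 171 CPM, and the sum of both genes had a log2 fold change of -0.11 (SE 0.09). Of the counts of a gene and all its listed copies, EIF4EP2 held 47.6% for EIF4E, EIF1AXP1 28.8% for EIF1AX, EIF3FP3 27.6% for EIF3F and EIF2S2P4 25.8% for EIF2S2. Smaller shares were held by EIF5AP4 (19.7%) and EIF5AL1 (13.9%) for EIF5A, EIF4A1P10 (18.7%) for EIF4A1 and EIF4BP7 (16.9%) for EIF4B. For these genes the split between gene and copy is uncertain.

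**Figure D4:**
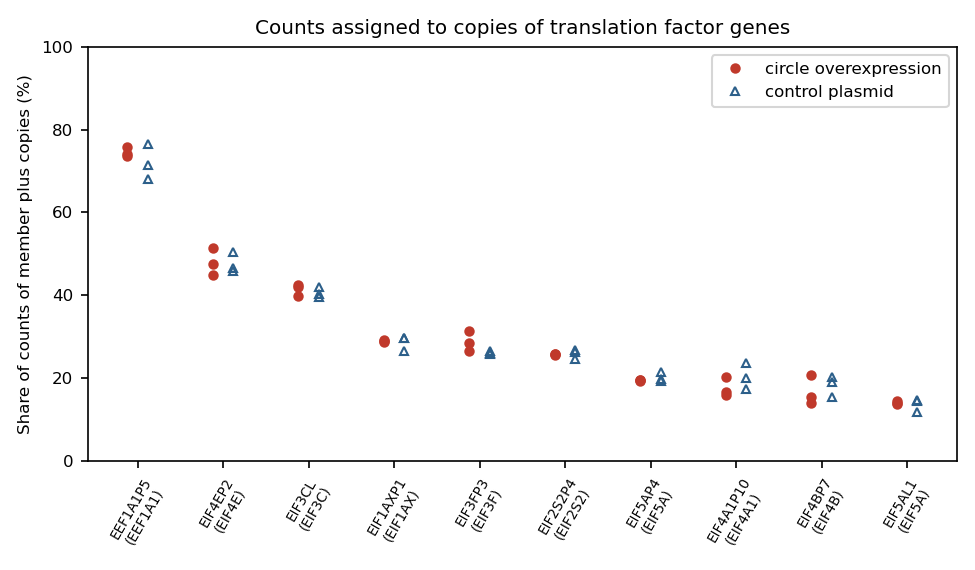
Share of counts, in percent, that each copy named for a share of at least 10% held. The share is of the counts of the factor gene (in parentheses on the x axis) and its listed copies. Each red circle is 1 overexpression library and each blue triangle 1 control library. EEF1A1P5 is the highest at 73.2% over all libraries and EIF5AL1 the lowest of those drawn at 13.9%.

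Paralogs were compared within libraries as log2 ratios of counts, which need no scaling between libraries. In 8 pairs, the exact two-sided permutation test gave p from 0.2 to 1 and Benjamini-Hochberg adjusted p from 0.8 to 1, in a design whose smallest possible p is 0.1. For EIF4A1 to EIF4A2 the mean log2 ratio was -0.98 ± 0.15 with overexpression and -1.20 ± 0.15 in controls (SD, n = 3 each, exact p = 0.2). For EIF5A to EIF5A2 it was 3.12 ± 0.24 against 2.94 ± 0.10 (SD, n = 3 each, exact p = 0.3). For EIF4G1 to EIF4G3 it was 2.56 ± 0.10 against 2.41 ± 0.14 (SD, n = 3 each, exact p = 0.3). The ratio of EIF4A1 to EIF4A2 took EIF4A1 alone. Summed with the genes that overlap it, EIF4A1 had a log2 fold change of 0.01, against 0.10 for EIF4A2. Since no pair could have reached 0.05 in this design, the test does not show that any ratio was the same in both groups.

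Fold changes were also set out by the pyrimidine start, with no test of the difference. Of the 12 genes with those letters, 8 were above 0 and 4 below, with a median log2 fold change of 0.03 and a range of -0.19 to 0.31. The 34 tested genes with an entry and without them had a median of 0.07, with 21 above 0 and 13 below.

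Genes of related steps, from regulators of these factors to the mitochondrial counterparts, were counted from 5 lists, and no gene of any list passed the adjusted threshold. In the arm of mTORC1 and the 4E-BPs, which bind and block eIF4E, 5 of 13 tested genes were above 0 and 8 below, with a median of -0.01. EIF4EBP1 had a log2 fold change of 0.21 (SE 0.12) with overlapping groups. EIF4EBP2 was at 295, 303 and 306 CPM with overexpression and at 375, 320 and 320 CPM in controls, a log2 fold change of -0.17 (SE 0.09) with no overlap and control replicate 1 highest. MKNK1, a kinase of eIF4E, had the smallest p of this list, with 21.9, 19.8 and 20.8 CPM against 34.1, 28.4 and 22.5 CPM and a log2 fold change of -0.44 (SE 0.16, edgeR adjusted p = 0.797). Its groups did not overlap, and neither did those of LARP1. That made 3 of the 13 genes, all lower, while groups did not overlap for 12.9% of all genes tested.

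Among the eIF2 kinases and the stress genes downstream of them, 5 of 14 were above 0 and 9 below, with a median of -0.11, and none had an unadjusted p under 0.05. The smallest p was that of EIF2AK3, the kinase of the endoplasmic reticulum, with a log2 fold change of -0.17 (SE 0.10). ATF4, whose protein is made when eIF2 is phosphorylated, was at 611, 561 and 568 CPM against 491, 580 and 567 CPM. DDIT3, a target of ATF4, had a log2 fold change of 0.05 (SE 0.23). In the list for poly(A) binding, termination and recycling, 5 of 9 were above 0, and PABPC1, the poly(A)-binding partner of eIF4G, was at 581, 721 and 722 CPM against 937, 582 and 835 CPM with overlapping groups. MCTS1, which helps recycle the small subunit, had the smallest p there, with a log2 fold change of 0.35 (SE 0.16). Of 13 genes in the list for elongation factor modification, which also holds the selenocysteine elongation factor EEFSEC, 11 were above 0 and 2 below, with a median of 0.11. METTL13, a methyltransferase of eEF1A, was at 37.6, 35.6 and 34.8 CPM against 28.1, 32.3 and 28.6 CPM, all overexpression libraries above all controls, with a log2 fold change of 0.28 (SE 0.10, unadjusted p = 0.027, edgeR adjusted p = 0.797). Of the 9 mitochondrial translation factors, 4 were above 0 and 5 below, with a median of -0.04. MTIF2, the mitochondrial counterpart of eIF5B, had the smallest p with a log2 fold change of 0.13 (SE 0.09). Besides METTL13, groups did not overlap for EIF2AK3, which was lower, and for PABPC4, MCTS1 and MTIF2, which were higher. Among all genes tested that share was 12.9%.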

How the data were processed

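RNA was sequenced from 6 libraries of Huh7 cells, 3 per plasmid, grouped by sample title. The authors deposited 1 table that gives, for each gene in each library, unnormalized counts of reads and FPKM values. The submitters' processing notes name TopHat2 2.0.9 and hg38. The counting tool, annotation release and strand handling are not given in the sources used here, so reads of near-identical or overlapping genes are uncertain. All 58 gene IDs were found in GENCODE 29 (GRCh38), 54 with the same coordinates.

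Counts were tested in R 4.3.3 by the two-sided quasi-likelihood test of edgeR 4.0.16, with plasmid as the sole factor. TMM factors scaled the libraries, filterByExpr removed low genes (minimum count 10), and Benjamini-Hochberg adjustment over the remaining 15055 genes was read at 0.05. The biological coefficient of variation was 16.1%. CPM used TMM library sizes. Standard errors were derived from the F statistic. Floors of 3 counts cover counting error only, since the reads carry no molecular identifiers. Chi-square tests found no library to be a copy of another in its group. The fit was also run on counts simulated from its own means and dispersions, which cannot check how reads were assigned to genes.

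The genes, roles and lists were chosen with earlier results of these data known. Within roles, the genes given with every library's value were the most abundant member, the one with the smallest p, any with an unadjusted p under 0.05 and the paralog pairs. Also named were the gene with the smallest p of each list, EIF4EBP1, EIF4EBP2, ATF4, DDIT3, PABPC1 and the factor gene EEF2K, and copies were named from 10% of the counts. EIF4B was added after its values were seen. Copies were aligned with edlib 1.3.9.post1 to GENCODE 29 coding sequences.

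Alternatives were DESeq2 1.42.0, normalization by RLE or upper quartile, 2 other count filters, limma 3.58.1 on log2(FPKM + 1), a replicate block, sums with copies, and leaving out each library. Sums with genes that share at least 100 exonic bases on the same strand were added after seeing the data.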

Additional observations from a re-analysis of the deposited data

How the results depend on the processing

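No factor gene was called in either direction under any alternative run, and the smallest adjusted p of a factor gene in any fit was 0.669. The number at an unadjusted p under 0.05, 4 in the fit reported, was 2 with upper-quartile normalization, 2 with limma on log2(FPKM + 1) and 2 with a replicate block. It was 1 to 3 when each library was left out, and 3 with overlapping genes summed. No label says that same-numbered libraries were paired. Their deviations correlated at -0.025, 0.0020 and -0.028, which cannot tell whether they were prepared together. With the block, as without it, no factor gene was called.

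For 25 named genes, 358 of 373 alternative fold changes kept their sign and 15 reversed it. The cause was not tested. EEF1A1 reversed to 0.062 when summed with its copies. With each library left out in turn, log2 fold changes ran from -0.38 to 0.019 for EEF1A1, -0.38 to 0.19 for EEF1A2, -0.083 to 0.32 for EIF1, -0.047 to 0.14 for EIF1B, -0.070 to 0.020 for EIF2S2, -0.064 to 0.15 for EIF4E, -0.046 to 0.13 for EIF4E2, -0.16 to 0.023 for EIF5A2, -0.15 to 0.033 for EIF5B and -0.052 to 0.26 for EIF6. For the difference between groups in a paralog ratio, none of 63 alternatives was scored as moving by more than the spread between libraries. That is not claimed for EIF4A1 to EIF4A2 with overlapping genes summed. There the log2 fold change was 0.01 for EIF4A1 and 0.10 for EIF4A2. The median of the factor genes ran from -0.0014 to 0.053 with each library left out. With 3 libraries a group, the median SE of 0.11 limits what changes of a factor gene can be told from 0.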
